A study of Homo sapiens with 3 samples.

Results

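AP-1 and EGR factors were followed in RH30, an alveolar rhabdomyosarcoma cell line, as the genes JUN, JUNB, JUND, FOS, FOSB, FOSL1, FOSL2, EGR1, EGR2 and EGR3. The members were all probe sets that name only 1 of these 10 genes in the platform annotation: 17 probe sets for 9 genes, of 19064 probe sets that name 1 gene and 11963 genes with such a probe set. EGR2 was not analysed here. There were 3 arrays, 1 per condition: anti-MYCN PNA at 10 µM, mutated PNA at 10 µM, and untreated cells, each at 12 hours. A PNA (peptide nucleic acid) is a synthetic analogue of DNA in which a peptide-like chain replaces the sugar and phosphate; one was directed against the MYCN gene, and the other is a mutated version of it that the study describes as inactive. All cells grew in RPMI with serum, RH30 is a single line, and nothing in the labels says that the cultures were independent. No value therefore has a replicate error and no difference has a test. The array here called untreated is untreated by title and treatment text but has a source name that says mutated PNA. Every comparison names the mutated PNA array, the untreated array or both, and so rests on that label.

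AP-1 is a dimer of basic leucine zipper proteins, usually 1 JUN protein with 1 FOS protein, that binds short DNA sites in promoters and enhancers. EGR proteins are zinc finger factors that bind GC-rich sites. Many of these genes belong to the immediate early class, whose transcripts appear within minutes of a growth factor or stress signal through MAP kinases and decay quickly. JUND and FOSL2 are the members known for steadier expression. In muscle precursors, JUN is known as a factor that can oppose MYOD1.

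Signals of different probe sets are not measures of relative transcript amount, so expression is given in bands. The floor is the 25th percentile of all gene probe sets over the 3 arrays, a signal of 23.4, and the filter is the 50th percentile, 117. A probe set was in the upper band when its signal reached 117 on all 3 arrays and in the lower band when it stayed under 23.4 on all 3. Of the 17 probe sets, 7 were in the upper band, 8 in between and 2 in the lower band. JUN was in the upper band by 4 of 4 probe sets, JUNB by its only one, JUND by 1 of 3 and FOSL2 by 1 of 3. FOS, FOSL1 and EGR1 had only probe sets in between, and FOSB and EGR3 only ones in the lower band. These bands are shown in the plot of signals by probe set.

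**Figure D1:**
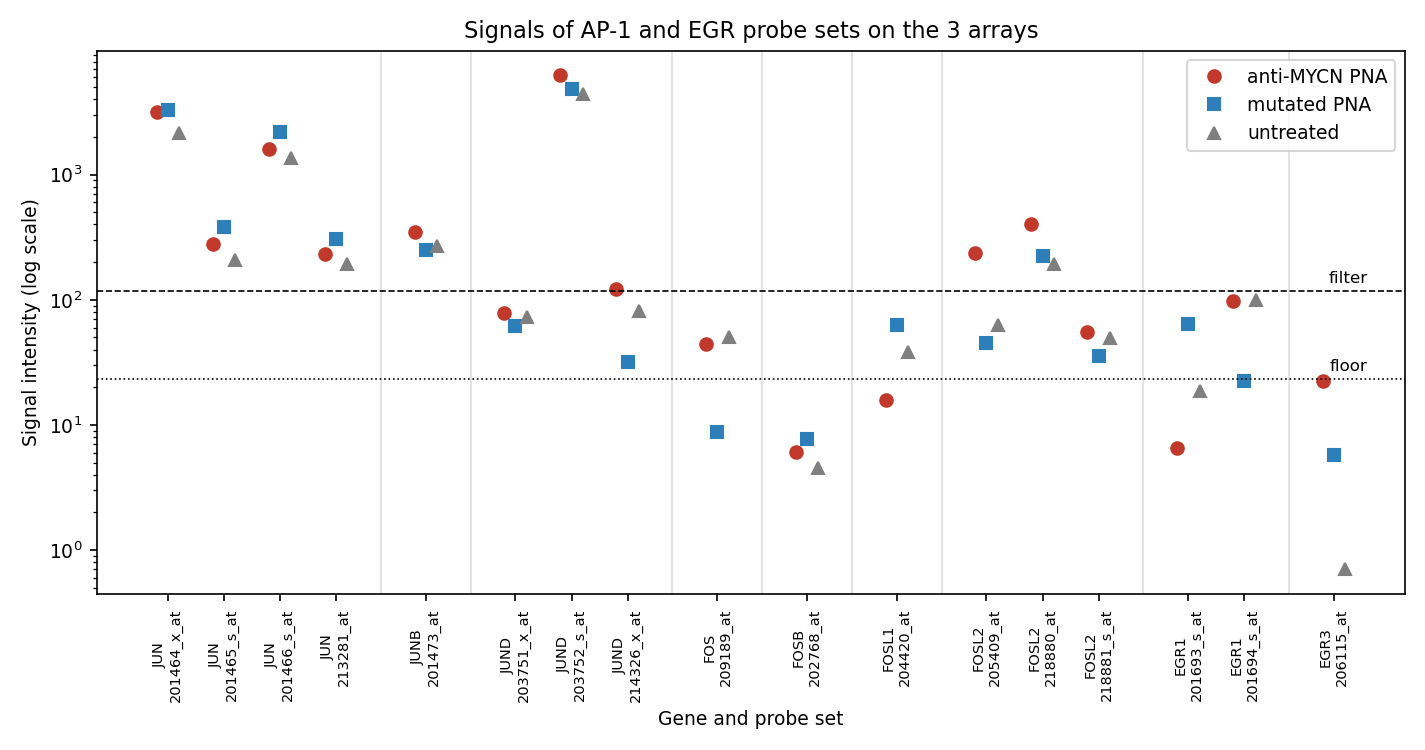
Signal intensity (log axis) of each of the 17 probe sets on the anti-MYCN PNA, mutated PNA and untreated arrays. The dashed line is the filter (117) and the dotted line the floor (23.4). All 4 JUN probe sets, JUNB, 1 JUND and 1 FOSL2 probe set lie above the filter on every array.

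As a measured background, 30 genes of liver, blood, eye, pancreas and other tissues were taken, of which 27 had a probe set. Their 43 probe sets had a median signal, averaged over the arrays, of 14.6 and a 90th percentile of 45.7, and 1 of them reached the filter, a probe set of the neutrophil enzyme MPO at 159. None of the 43 had a higher mean signal than any upper-band member probe set. FOS and FOSL1, with means of 34.4 and 38.9, were each exceeded by 7 of the 43, and EGR1 by 2 with its brighter probe set and 7 with its dimmer one. FOSB, at 6.1, was exceeded by 36 and EGR3, at 9.7, by 26. Of the dimmer JUND probe sets, 203751_x_at was exceeded by 3 and 214326_x_at by 1, and of the dimmer FOSL2 probe sets, 218881_s_at by 4 and 205409_at by 1. By this measure JUN, JUNB, JUND and FOSL2 were expressed in RH30, JUND and FOSL2 each by 1 probe set, and every probe set of FOS, FOSB, FOSL1, EGR1 and EGR3 lay within the range of genes of other tissues.

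**Figure D2:**
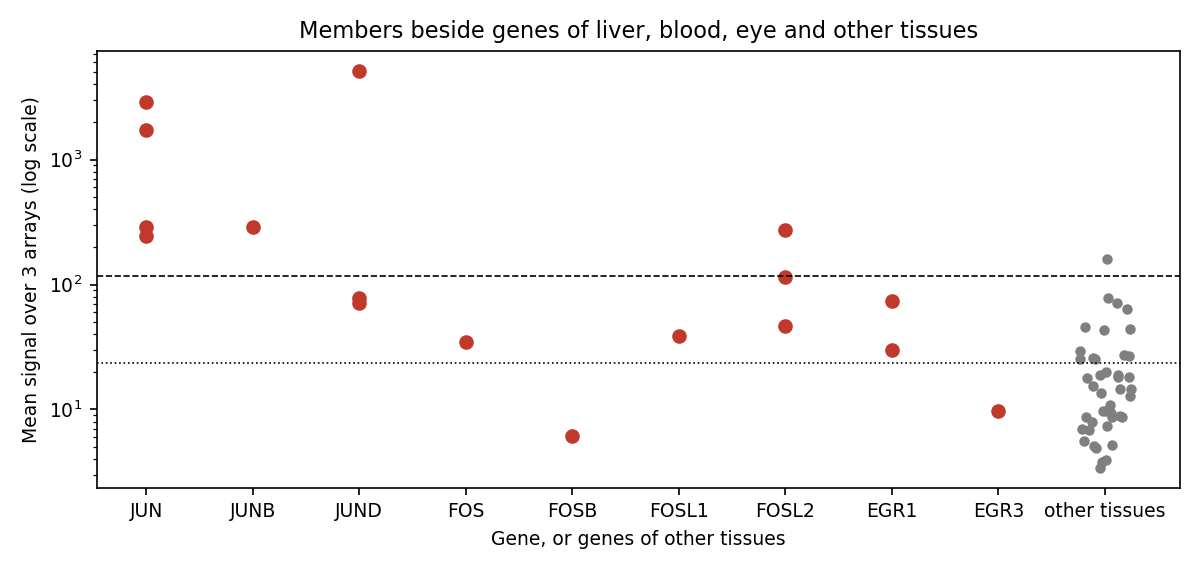
Mean signal over the 3 arrays (log axis) of each member probe set (red) and of 43 probe sets for genes of other tissues (grey). The dashed line is the filter (117) and the dotted line the floor (23.4). JUN, JUNB, 1 JUND and 1 FOSL2 probe set lie above every grey point, and FOSB and EGR3 lie among them.

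RefSeq promoters (GRCh38.p14) cover 250 bases before to 50 after the start of a gene, and 7 of the 9 measured genes had one. They are shown for JUN, JUND and FOSL2, whose signals the comparisons turn on, and for EGR1, an inducible member that was dim here. Capitals mark, on either strand, an AP-1 site (TGACTCA), a JUN-type site (TGACATCA), a CRE (TGACGTCA, bound by the CREB and ATF factors) or a CArG box, the site of the serum response factor SRF.
JUN, chr1:58783998-58784297, minus strand: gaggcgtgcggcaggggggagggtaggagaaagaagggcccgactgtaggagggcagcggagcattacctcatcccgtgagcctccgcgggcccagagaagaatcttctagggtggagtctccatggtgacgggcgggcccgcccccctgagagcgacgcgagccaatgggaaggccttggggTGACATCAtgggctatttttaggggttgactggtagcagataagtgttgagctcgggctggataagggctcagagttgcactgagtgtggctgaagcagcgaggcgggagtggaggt
JUND, chr19:18281573-18281872, minus strand: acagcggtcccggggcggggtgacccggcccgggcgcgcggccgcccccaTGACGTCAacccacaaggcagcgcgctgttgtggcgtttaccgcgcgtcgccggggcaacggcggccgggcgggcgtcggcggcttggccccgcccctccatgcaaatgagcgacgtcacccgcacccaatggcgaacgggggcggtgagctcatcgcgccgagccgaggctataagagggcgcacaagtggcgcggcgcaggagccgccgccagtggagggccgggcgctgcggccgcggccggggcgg
FOSL2, chr2:28392608-28392907, plus strand: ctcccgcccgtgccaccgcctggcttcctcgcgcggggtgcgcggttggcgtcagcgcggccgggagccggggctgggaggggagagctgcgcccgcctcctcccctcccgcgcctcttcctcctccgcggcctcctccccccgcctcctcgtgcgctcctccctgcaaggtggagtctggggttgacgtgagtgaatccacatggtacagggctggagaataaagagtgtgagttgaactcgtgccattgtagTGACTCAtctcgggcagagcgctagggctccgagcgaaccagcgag
EGR1, chr5:138465229-138465528, plus strand: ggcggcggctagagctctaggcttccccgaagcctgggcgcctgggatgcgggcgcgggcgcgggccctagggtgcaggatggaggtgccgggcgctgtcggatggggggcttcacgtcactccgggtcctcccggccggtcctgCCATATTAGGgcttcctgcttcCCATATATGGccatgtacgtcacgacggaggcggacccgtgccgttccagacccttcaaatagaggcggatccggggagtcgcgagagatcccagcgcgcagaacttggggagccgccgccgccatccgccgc

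The 4 windows held 4 different kinds of site. JUN had a JUN-type site that begins 67 bases before the start, a motif that 2.61% of 35116 promoters of the same length hold. JUND had a CRE that begins 200 bases before the start, held by 1.85%. FOSL2 had an AP-1 site that begins at base 5 after the start, held by 4.95%. EGR1 had 2 CArG boxes, beginning 105 and 83 bases before the start, held by 1.29%. None of these 4 motifs, and no EGR site (GCGTGGGCG or its reverse complement, held by 0.795%), was found in the windows of JUNB, FOS and FOSB. Sequence further than 250 bases before a start was not searched, so an absence holds for the window only. A match here describes letters in a window and is not evidence of binding.

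The gene under attack, MYCN, codes for a factor of the MYC family, and its brightest probe set read 2202 in anti-MYCN PNA cells, 2804 in mutated PNA cells and 3313 in untreated cells. Of 10 measured RH30 or muscle lineage markers, 9 passed the filter, among them MYOD1, MYOG, DES, PAX3 and FOXO1, and CHRNG did not. Of leukocyte, endothelial, epithelial and fibroblast markers, 1 of 8, 1 of 6, 1 of 7 and 2 of 8 passed it, and no value was 0. Their summed signals were 521, 621, 612 and 988 on the anti-MYCN PNA array, 316, 279, 508 and 963 on the mutated PNA array and 276, 267, 830 and 863 on the untreated array. All 24 poly-A spike probe sets were lower on the anti-MYCN PNA array, with a median ratio of 0.382 to mutated PNA and 0.410 to untreated, against 1.06 for mutated PNA over untreated. The 3′ to 5′ signal ratio of beta-actin was 1.99, 1.73 and 2.11 in anti-MYCN PNA, mutated PNA and untreated cells. The part of these array differences in the results that follow was not tested.

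Differences are log2 differences of signals set to at least the floor, and the probe set with the highest mean signal stands for its gene. A gene entered the counts when that mean reached the filter, which 4 of the 9 measured members did (JUN, JUNB, JUND and FOSL2), among 6745 genes in all. The only measure of background is the difference between the mutated PNA and untreated arrays, given here as the control range, the absolute log2 difference that 95% of genes in the same of 10 signal classes did not exceed. It is not a replicate error, and it cannot judge a difference between mutated PNA and untreated cells, the comparison from which it was taken.

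None of the 4 genes was 2-fold apart between anti-MYCN PNA and mutated PNA cells, in either direction, where 2.7% of all genes were 2-fold or more higher and 2.33% lower. FOSL2 was 2-fold higher in anti-MYCN PNA than in untreated cells, where 3.07% of all genes were, and no member was 2-fold lower, against 2.31%. No member was 2-fold from both controls, against 1.16% of genes higher and 1.26% lower. Between mutated PNA and untreated cells no member was 2-fold apart, and 0.371% of all genes were, in each direction. FOSL2, JUNB and JUND were above both controls by any amount, as 47.9% of all genes were. FOSL2 and JUND were above both by more than the control range of their signal, against 11% of all genes. With 4 genes chosen as a family, these counts are a description. The comparisons share arrays: those of anti-MYCN PNA share that array, and those with untreated cells share the untreated one.

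**Figure D3:**
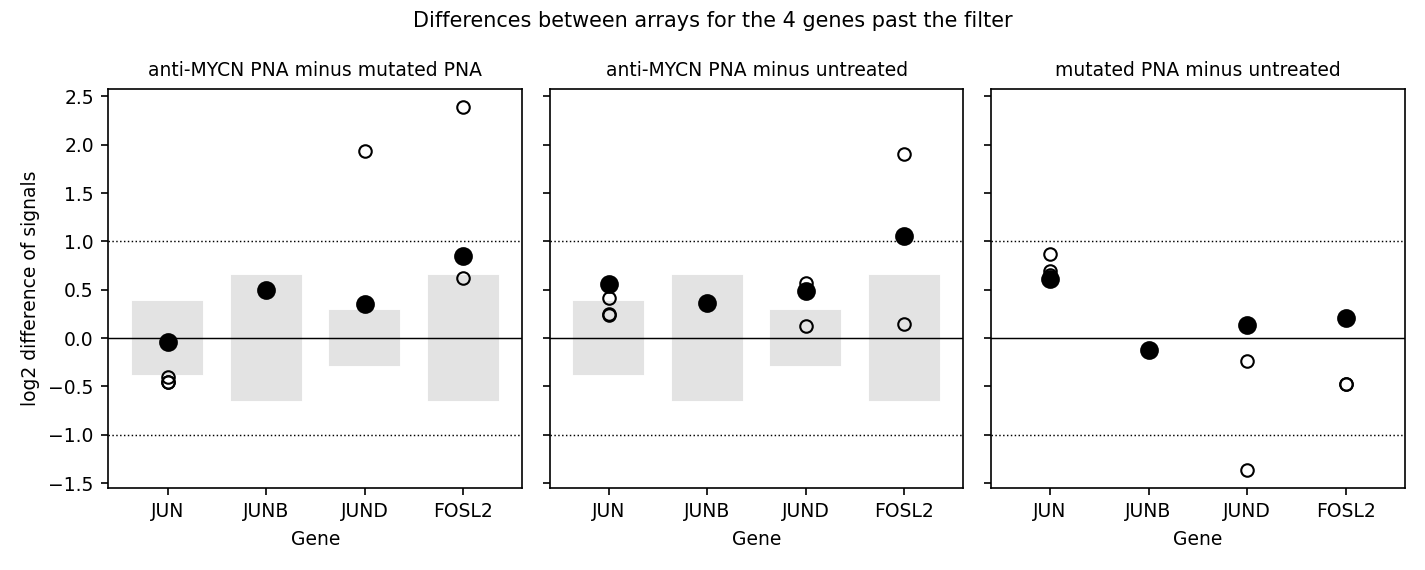
log2 difference of signals for JUN, JUNB, JUND and FOSL2 in the 3 comparisons. Filled points are the probe set of highest mean signal, open points the other probe sets of the gene and dotted lines 2-fold. Grey bars, drawn only for the comparisons with anti-MYCN PNA, are the control range at the filled point's signal. They do not apply to the open points, some of which are dim. FOSL2 lies at 0.85, 1.06 and 0.21 from left to right, and JUN lies at −0.05, 0.56 and 0.61.

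JUN encodes the founding JUN protein, which pairs with FOS proteins or with itself. Its brightest probe set, 201464_x_at, had a signal of 3187 in anti-MYCN PNA, 3289 in mutated PNA and 2157 in untreated cells. JUN was thus higher on both PNA arrays than on the untreated one, by 0.56 with anti-MYCN PNA and 0.61 with mutated PNA on the log2 scale. The anti-MYCN PNA difference to untreated was beyond the control range of 0.37 at that signal, and its difference to mutated PNA (−0.05) lay within it. That range cannot judge the 0.61 between mutated PNA and untreated cells. In the mutated PNA comparison, 3 of the 674 genes in the same signal class were as high or higher, JUN included, and over all 6745 genes JUN ranked 146.

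The other 3 JUN probe sets had the same order of arrays but other sizes. Probe set 201466_s_at read 1595 in anti-MYCN PNA, 2188 in mutated PNA and 1353 in untreated cells. Probe set 201465_s_at read 279 in anti-MYCN PNA, 382 in mutated PNA and 209 in untreated cells, and 213281_at read 231, 306 and 194 in the same order. All 4 were highest with mutated PNA and lowest in untreated cells. The fold of mutated PNA over untreated ran from 1.52 to 1.83 over the 4 probe sets. The fold of anti-MYCN PNA over untreated ran from 1.18 to 1.48, and only that of 201464_x_at went beyond the control range at its own signal. With each array scaled to one median, its log2 difference was 0.364, just inside the range of 0.369.

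Where the JUN probe sets parted was between the 2 PNAs. With 201464_x_at the anti-MYCN PNA signal was 96.9% of the mutated PNA signal, and with the other 3 it was 73.0%, 72.9% and 75.4%. Their log2 differences were −0.45, −0.46 and −0.41, against control ranges of 0.64, 0.42 and 0.72 at their signals, so only that of 201466_s_at was beyond its range. Probes of an _x_at set can also match other transcripts. The 4 sets report on 1 gene from the same 3 RNA samples and are not replicates.

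JUND encodes a JUN protein that is present in resting cells. Its bright probe set, 203752_s_at, had a signal of 6204 in anti-MYCN PNA, 4862 in mutated PNA and 4413 in untreated cells. The anti-MYCN PNA array was the high one, by 0.35 over mutated PNA and 0.49 over untreated, and the control range at that signal was 0.28. The mutated PNA and untreated arrays differed by 0.14. Of 675 genes in the same signal class, 128 were as high or higher than JUND against mutated PNA and 61 against untreated, and the medians of that class were 0.06 and 0.08. With each array scaled to one median the differences were 0.17 to mutated PNA, inside the range, and 0.29 to untreated.

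The other 2 JUND probe sets were dim. Probe set 203751_x_at read 78.5 in anti-MYCN PNA, 61.2 in mutated PNA and 72.2 in untreated cells. Probe set 214326_x_at read 122 in anti-MYCN PNA, 31.9 in mutated PNA and 82.0 in untreated cells. Both lay within the range of genes of other tissues, so the order of arrays for JUND rests on 203752_s_at.

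JUNB encodes a JUN protein that can restrain JUN and is known as a brake on proliferation. Its signal was 350 in anti-MYCN PNA, 248 in mutated PNA and 271 in untreated cells. The anti-MYCN PNA value was the highest, by 0.50 over mutated PNA and 0.37 over untreated, and both differences lay within the control range of 0.64. Mutated PNA was below untreated by a log2 difference of −0.13. The anti-MYCN PNA array cannot be ordered against either control for JUNB beyond that range, and the range does not bear on the order of the controls.

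FOSL2 encodes FRA2, a FOS protein without the strong activation region of FOS. Its brightest probe set, 218880_at, had a signal of 402 in anti-MYCN PNA, 224 in mutated PNA and 193 in untreated cells. The anti-MYCN PNA array stood above both others, 1.80-fold over mutated PNA and 2.08-fold over untreated, and both differences (0.85 and 1.06) exceeded the control range of 0.64. The mutated PNA and untreated arrays differed by 0.21. Of 674 genes in that signal class, 52 were as high or higher against mutated PNA and 27 against untreated, and the medians of the class were 0.16 and 0.15. The 2-fold difference to untreated was at the edge of the threshold: it was 0.996 with quantile normalization, 0.86 with median scaling and 0.97 with a pseudocount in place of the floor. Under the same settings the difference to mutated PNA was 0.80, 0.67 and 0.78, so with median scaling it was only just beyond the range.

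The other 2 FOSL2 probe sets did not pass the filter. Probe set 205409_at read 235 in anti-MYCN PNA, 44.8 in mutated PNA and 62.5 in untreated cells. Its mean of 114 lay just under the filter, which only the anti-MYCN PNA signal reached, so no fold is given. The 90th percentile of the probe sets for genes of other tissues was 59.4 on the mutated PNA array, above the signal of 205409_at there. On the untreated array it was 49.7, below that signal. Probe set 218881_s_at read 54.9 in anti-MYCN PNA, 35.6 in mutated PNA and 49.6 in untreated cells. The signals of 218881_s_at on all 3 arrays, and the control signals of 205409_at, lay within the range of genes of other tissues. For the untreated signal of 205409_at this holds only through the MPO probe set, at 121 on that array. The order of arrays for FOSL2 therefore rests on 218880_at.

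FOS, the classic immediate early partner of JUN, had a signal of 44.4 in anti-MYCN PNA, 8.7 in mutated PNA and 50.1 in untreated cells. The mutated PNA value was the low one and was below the floor, and the other 2 were dim, so no fold is given. FOSB, an inducible FOS protein, read 6.1 in anti-MYCN PNA, 7.7 in mutated PNA and 4.5 in untreated cells, all below the floor. FOSL1, which encodes FRA1, read 15.8 in anti-MYCN PNA, 62.7 in mutated PNA and 38.3 in untreated cells. FOSL1 was lowest with anti-MYCN PNA, below the floor, whereas FOSL2 was highest there, but FOSL1 did not reach the filter on any array.

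EGR1, a zinc finger factor induced by growth signals, was measured by 2 probe sets that disagreed. Probe set 201694_s_at read 97.6 in anti-MYCN PNA, 22.6 in mutated PNA and 99.7 in untreated cells, with mutated PNA the low array. Probe set 201693_s_at read 6.6 in anti-MYCN PNA, 64.5 in mutated PNA and 18.6 in untreated cells, with mutated PNA the high array. Neither reached the filter on any array, so no direction can be given for EGR1. EGR3, an EGR1 relative, read 22.6 in anti-MYCN PNA, 5.8 in mutated PNA and 0.7 in untreated cells, all below the floor and with no order that can be read.

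The 2 members past the filter with the widest range over the arrays were FOSL2 and JUN, with log2 ranges of 1.06 and 0.61. The genes of nearest pattern were taken by the distance between their 3 log2 values after the mean was subtracted. For FOSL2 these were FBLN1, SLC38A10, FAM89B, SLC4A2 and MRPL2, at distances from 0.0086 to 0.019. For JUN they were SMOX, PTPN18, the pseudogene PTTG3P, FICD and TMEM147-AS1, at distances from 0.010 to 0.047. With 3 arrays such matches are common: 54 genes lay within 0.1 of FOSL2 and 31 within 0.1 of JUN.

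The 8 lists of genes around AP-1 and EGR that follow are given by their counts past the filter and medians, beside medians over all 6745 genes of 0.06 for anti-MYCN PNA minus mutated PNA, 0.06 for anti-MYCN PNA minus untreated and 0.00 for mutated PNA minus untreated. ATF3, HBEGF, MAFF, NAB2 and SRF each belong to 2 lists.

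Of 38 other immediate early genes, 35 had a probe set and 26 passed the filter. In mutated PNA against untreated cells, 19 of the 26 were lower and 7 higher, with a median of −0.21 and values from −1.94 to 0.81, where 50.2% of all genes were higher. In anti-MYCN PNA against untreated cells, 15 were lower and 11 higher, with a median of −0.20, where 55.2% of all genes were higher. In anti-MYCN PNA against mutated PNA cells, 15 were higher and 11 lower, with a median of 0.03, where 55.1% of all genes were higher. The directions against untreated cells rest on the untreated array, which both such comparisons share, and JUN lay above untreated in both. The small MAF factor MAFF read 113 in anti-MYCN PNA, 112 in mutated PNA and 427 in untreated cells. CCN2, a secreted matrix protein known as a target of serum and YAP signals, read 98.7 in anti-MYCN PNA, 81.5 in mutated PNA and 177 in untreated cells. These 2 were the genes of the list at least 2-fold lower with mutated PNA. Only the untreated signals of MAFF and CCN2 reached the filter of 117, so both entered the list's counts through the array where they were high. PPP1R15A, a stress-induced subunit of the phosphatase that acts on the translation factor eIF2, read 481 in anti-MYCN PNA, 224 in mutated PNA and 182 in untreated cells and was the only one 2-fold from both controls. ZFP36, which promotes decay of AU-rich mRNAs, read 322 in anti-MYCN PNA, 212 in mutated PNA and 177 in untreated cells, and its relative ZFP36L1 lay the other way at 1421, 2418 and 2405. PLK2, a polo-like kinase, read 115 in anti-MYCN PNA, 207 in mutated PNA and 223 in untreated cells. The difference of ZFP36 to the nearer control, 0.60, lay within the control range of 0.72 at its signal.

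**Figure D4:**
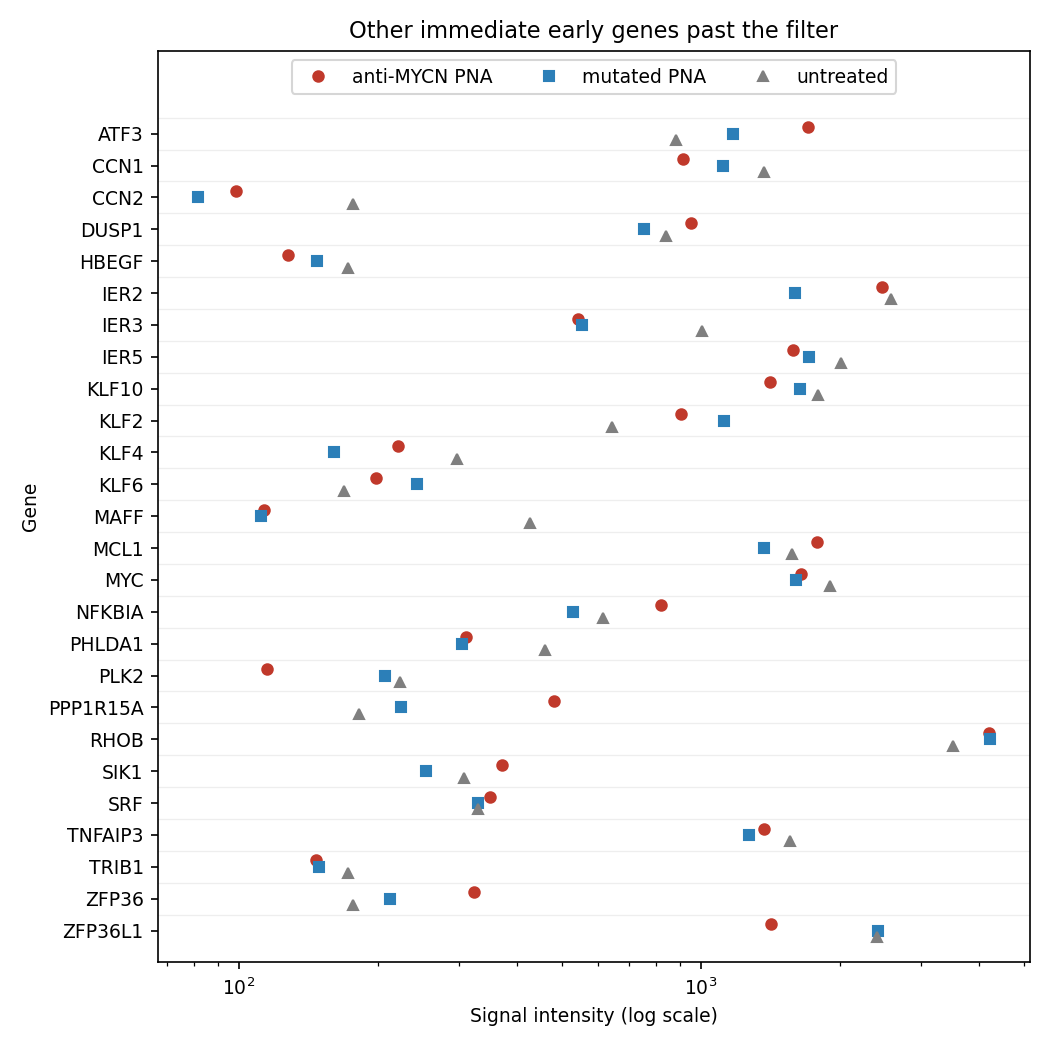
Signal intensity (log axis) of the 26 other immediate early genes past the filter on the anti-MYCN PNA, mutated PNA and untreated arrays. In 19 of the 26 the mutated PNA point lies below the untreated one, where 50.2% of all genes were higher with mutated PNA. MAFF reads 112 against 427, and only its untreated point reaches the filter (117). The anti-MYCN PNA point of PPP1R15A, at 481, lies right of its other 2 points.

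Of 18 partner bZIP factors, 14 had a probe set and 11 passed the filter, with medians of 0.17 for anti-MYCN PNA minus mutated PNA, 0.10 for anti-MYCN PNA minus untreated and −0.08 for mutated PNA minus untreated. ATF2, which pairs with JUN at CRE sites, read 103 in anti-MYCN PNA, 266 in mutated PNA and 303 in untreated cells. BACH1, a repressor that pairs with small MAF proteins, read 281 in anti-MYCN PNA, 592 in mutated PNA and 627 in untreated cells. These 2 were at least 2-fold below both controls, and no gene of the list was 2-fold above both. DDIT3, the stress factor CHOP, read 3226 in anti-MYCN PNA, 1159 in mutated PNA and 1672 in untreated cells, and NFE2L1, a factor that induces proteasome genes, read 2331, 1260 and 1378. The large MAF factor MAF read 129 in anti-MYCN PNA, 324 in mutated PNA and 137 in untreated cells, with mutated PNA the high array.

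Upstream, 17 of 23 MAP kinase chain genes had a probe set and 14 passed the filter. Their medians were 0.28 for anti-MYCN PNA minus mutated PNA, 0.40 for anti-MYCN PNA minus untreated and −0.03 for mutated PNA minus untreated. Of the 14, 11 were above both controls and 1 below, where 47.9% of all genes were above both and 37.6% below. By more than the control range, 3 were above both and 1 below, where 11% and 10.6% of all genes were. None of the 14 was 2-fold from both. Dim genes as a whole lay higher with anti-MYCN PNA: the medians of the lowest signal class were 0.19 to mutated PNA and 0.23 to untreated. MAP2K5 read 490 in anti-MYCN PNA, 261 in mutated PNA and 236 in untreated cells, and MAPK7, the kinase that it activates, read 1564, 935 and 880. RPS6KA4, a kinase that phosphorylates CREB and histone H3, read 348 in anti-MYCN PNA, 201 in mutated PNA and 218 in untreated cells, and its close relative RPS6KA5 lay below both controls at 382, 624 and 640. Between the controls the widest differences of the chain were those of RPS6KA3, at −0.65, and RPS6KA2, at 0.40.

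Of 9 SRF, ternary complex and CREB factors, 8 passed the filter, with medians of −0.07 for anti-MYCN PNA minus mutated PNA, −0.10 for anti-MYCN PNA minus untreated and −0.0011 for mutated PNA minus untreated, and none was 2-fold apart in any comparison. ELK3, a ternary complex factor that can repress FOS, read 898 in anti-MYCN PNA, 1448 in mutated PNA and 1666 in untreated cells. CREB1 read 267 in anti-MYCN PNA, 423 in mutated PNA and 451 in untreated cells. The coactivator CREBBP was lower than the nearer control by −0.30, the ternary complex factor ELK1 higher by 0.27, and EP300 differed between the controls by −0.31. CREBBP and ELK1 lay within the control range of their signals. Of 4 EGR relatives and corepressors, NAB1 and NAB2 passed, with medians of 0.13 for anti-MYCN PNA minus mutated PNA, −0.36 for anti-MYCN PNA minus untreated and −0.49 for mutated PNA minus untreated. NAB1 read 1305 in anti-MYCN PNA, 1850 in mutated PNA and 1733 in untreated cells. Its difference to the nearer control, −0.41, lay within the control range of 0.42. NAB2, a corepressor that EGR proteins themselves induce, read 677 in anti-MYCN PNA, 397 in mutated PNA and 834 in untreated cells, 2-fold lower with mutated PNA than untreated.

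Of 22 genes known as AP-1 targets, 21 had a probe set and 10 passed the filter. Their medians were 0.32 for anti-MYCN PNA minus mutated PNA, 0.17 for anti-MYCN PNA minus untreated and −0.14 for mutated PNA minus untreated. None was 2-fold from both controls. CCND1, the cyclin of G1 phase, read 822 in anti-MYCN PNA, 441 in mutated PNA and 975 in untreated cells. HMOX1, heme oxygenase, read 295 in anti-MYCN PNA, 221 in mutated PNA and 109 in untreated cells. TIMP1, a protease inhibitor, read 2041 in anti-MYCN PNA, 1108 in mutated PNA and 1515 in untreated cells. MT2A and PLAUR were above the nearer control by 0.27 and 0.22. MT2A, PLAUR and HMOX1 lay within the control range of their signals. TIMP1 alone of the list was beyond it from both controls, narrowly (0.430 against 0.424). Between mutated PNA and untreated cells CCND1 was 2-fold lower and HMOX1 2-fold higher.

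Of 12 genes known as EGR targets, 10 had a probe set and 7 passed the filter. Their medians were 0.55 for anti-MYCN PNA minus mutated PNA, −0.27 for anti-MYCN PNA minus untreated and −0.30 for mutated PNA minus untreated. None was 2-fold from both controls, and NAB2 was the one 2-fold apart between the controls. The growth factor genes TGFB1 and PDGFA were above the nearer control by 0.38 and 0.32, and F3, tissue factor, and THBS1, a matrix glycoprotein, below it by −0.64 and −0.61. TGFB1, PDGFA, F3 and THBS1 all lay within the control range of their signals, and no gene of the list was beyond it from both controls. FN1, fibronectin, differed between mutated PNA and untreated cells by −0.49. Of 9 regulators of the JUN and FOS proteins, 6 had a probe set and all 6 passed, with none 2-fold apart in any comparison. Their medians were 0.24 for anti-MYCN PNA minus mutated PNA, 0.21 for anti-MYCN PNA minus untreated and −0.00098 for mutated PNA minus untreated. COPS5, known as the JUN coactivator JAB1, read 1418 in anti-MYCN PNA, 2322 in mutated PNA and 2370 in untreated cells. FBXW7, the ubiquitin ligase subunit that marks JUN for degradation, read 235 in anti-MYCN PNA, 164 in mutated PNA and 155 in untreated cells. NACA and DET1 were above the nearer control by 0.27 and 0.19, and CSK differed between the controls by −0.53. FBXW7, NACA and DET1 lay within the control range of their signals, and COPS5 alone of the list was beyond it from both controls.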

How the data were processed

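RNA of RH30 cells was labelled by the Affymetrix one-cycle protocol, per the labels' protocols, and hybridised with 1 array per condition. Each deposited value is an intensity on a linear scale for 1 probe set, computed by MAS5 within GCOS according to the submitters' processing notes; versions are not given in the sources used here. The trimmed mean of the deposited intensities (2% off each end) was 500.2 on all 3 arrays. The number of arrays limits the precision.

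Of 22215 gene probe sets, 19064 name 1 gene in GEO's platform annotation, 1043 several and 2108 none; 19052 were matched to current symbols in the RefSeq gene table. Each array was scaled to one trimmed mean, values below the pooled 25th percentile were raised to it, and log2 values were used. Genes with a mean signal at or above the pooled 50th percentile were compared. Genes named are every member and MYCN, up to 4 of each list by the smaller difference to both controls and 2 by the control difference, and the 5 nearest patterns. The members and lists were chosen with earlier results of these data known; markers were named as examples after their values were seen. Recovery of the median size of planted differences was checked on simulated data, and the counts past 2-fold were not. Computation was in Python 3.11.15 (scipy 1.17.1, numpy 2.4.6, pandas 2.3.3; figures in matplotlib 3.10.9).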

Additional observations from a re-analysis of the deposited data

How the results depend on the processing

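The 12 differences of JUN, JUNB, JUND and FOSL2 were recomputed under 9 alternatives, which gave 93 values: median scaling, quantile normalization, unscaled signals, a pseudocount, no floor, a filter at the 75th percentile or none, the median over probe sets, and no _x_at or _s_at probe sets. None changed sign, and 85 moved by less than 1 SD of the control difference at that signal. Many of the 93 could hardly move. The arrays were deposited at nearly one trimmed mean, and these genes lay above the floor and filter. Unscaled signals, no floor and no filter therefore left their values as they were. The stricter filter, and for JUNB and FOSL2 leaving out _x_at and _s_at probe sets, returned the same probe set. The 85 is thus no measure of robustness. Median scaling moved the median of all genes to −0.12 for anti-MYCN PNA minus mutated PNA and −0.14 for anti-MYCN PNA minus untreated. Under it JUN was −0.23 to mutated PNA and 0.36 to untreated, and JUND 0.17 and 0.29. The median over probe sets gave JUN −0.46 and 0.33, and leaving out _x_at and _s_at probe sets gave −0.41 and 0.25. The stricter filter left JUN and JUND, and the median over probe sets left JUN and JUNB. The member count at least 2-fold above untreated with anti-MYCN PNA, 1 as reported, was 0 with quantile normalization, median scaling, the pseudocount, the stricter filter, the median over probe sets and a 3-fold threshold. At 1.5-fold, 1 gene was higher than mutated PNA and than both controls with anti-MYCN PNA (FOSL2), and 1 higher with mutated PNA than untreated (JUN). Without a filter, 1 was higher (EGR1) and 1 lower (FOSL1) in anti-MYCN PNA than mutated PNA, and 2 lower in mutated PNA than untreated (EGR1 and FOS), all with a signal below the floor on 1 array. Counts over all genes moved by more than 1.5 times under several settings: anti-MYCN PNA against both controls gave 78 genes higher and 85 lower, against 17 and 209 with median scaling, 622 and 182 without a filter and 558 and 497 at 1.5-fold. No paired analysis was possible because each condition has 1 array. Signal over background limits FOS, FOSB, FOSL1, EGR1 and EGR3.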
